A study of Mus musculus with 2 samples.

Results

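The MYC and MXD network is a family of transcription factors that compete for one partner, Max, and for the same DNA element. Members were taken as the rows of the deposited count table whose Ensembl identifier maps to Myc, Mycl, Max, Mxd1, Mxd3, Mxd4, Mxi1, Mnt, Mlx or Mga. All 10 of 10 were found, each as 1 row, among 20823 genes in the table. The members were chosen by measured values of these libraries, namely the lower count of Myc in the APAP library beside higher counts of cyclin and mitotic genes. All values of the members are therefore given as a description, with no test.

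The data are messenger RNA counts from hepatocytes of C57BL6J mice aged 8 weeks. The control library (n = 1) came from a liver labelled as having received no agent, and the APAP library (n = 1) from a liver taken 24 h after 300 mg/kg acetaminophen in saline, given into the peritoneum. Cells were freed with collagenase, depleted of CD31+ endothelial and CD45+ immune cells by flow cytometry, and sorted for high surface Cxcr2, at 20000 cells. The sources used here do not state the sex, how many mice each library holds or whether the control received saline.

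MYC-family proteins bind DNA only as dimers with MAX, through a basic helix-loop-helix leucine zipper, at E-boxes, and there recruit coactivators. MXD proteins, MXI1, MNT and MGA also dimerise with MAX, and the MXD proteins, MXI1 and MNT bring the SIN3 corepressor to the same sites. MLX is a parallel hub that pairs with the glucose-sensing factors MondoA (Mlxip) and ChREBP (Mlxipl), and also with MXD1, MXD4 and MNT. In liver, Myc is known as an early gene of regeneration, and ChREBP as a driver of lipogenic genes.

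The E-box that MYC:MAX and MXD:MAX dimers share, CACGTG, is a palindrome and reads the same on both strands. It was sought in 300-base windows, from 250 bases before to 50 bases after each gene start, that RefSeq gives for build GRCm38.p6. Among 27025 genes with a window, 8.09% held the element. Of the 9 members with a window, 4 held it: Max, Mxd4, Mnt and Mlx. The stretch around each is shown because these members of the network carry the letters that the network reads, with the element in capitals. The sequences lie at chr12:76962209-76962288 (minus strand) for Max, chr5:34187887-34187960 (minus strand) for Mxd4, chr11:74830764-74830843 (plus strand) for Mnt and chr11:101087213-101087292 (plus strand) for Mlx.
Max: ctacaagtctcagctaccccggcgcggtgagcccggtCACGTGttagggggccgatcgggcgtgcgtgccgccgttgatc
Mxd4: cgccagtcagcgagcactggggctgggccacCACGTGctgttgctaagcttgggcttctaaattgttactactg
Mnt: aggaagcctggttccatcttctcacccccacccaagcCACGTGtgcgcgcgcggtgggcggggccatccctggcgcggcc
Mlx: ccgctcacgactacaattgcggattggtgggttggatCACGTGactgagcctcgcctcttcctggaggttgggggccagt

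The first base of the element lay at position -3 relative to the gene start for Max, -40 for Mlx, -123 for Mnt and -219 for Mxd4. The windows of Mycl, Mxd1, Mxd3 and Mga and the 3 windows of Mxi1 did not hold these letters. A match is a description of the letters and shows no binding. Of the members with the element, Mnt and Mlx were higher in the APAP library by their intervals, at ratios of 1.73 and 1.37. Max and Mxd4 had ratios of 1.11 and 1.004 with intervals that included 1, and all 4 intervals lay above 1 with total counts.

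The libraries held 52419864 counts for control and 51009898 for APAP. Levels below are CPM, counts per 1000000 of a library total scaled by the trimmed mean of M-values (TMM), and each interval is a 95% counting interval. The ratio of a gene is its APAP CPM divided by its control CPM. A gene was called higher or lower when the ratio was at least 2-fold in that direction, its interval excluded 1 and both libraries together held at least 20 counts. With 1 library per group there is no replicate check and no p-value, and intervals cover counting error only. They compare these libraries, not the conditions. With total counts in place of TMM every log2 ratio, the median of all genes included, is higher by 0.35. A ratio less than 1.27-fold below 1, or a list median less than 0.35 below 0, then turns to the other side. In bulk RNA, fewer cells with a transcript and less transcript per cell cannot be told apart.

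**Figure D1:**
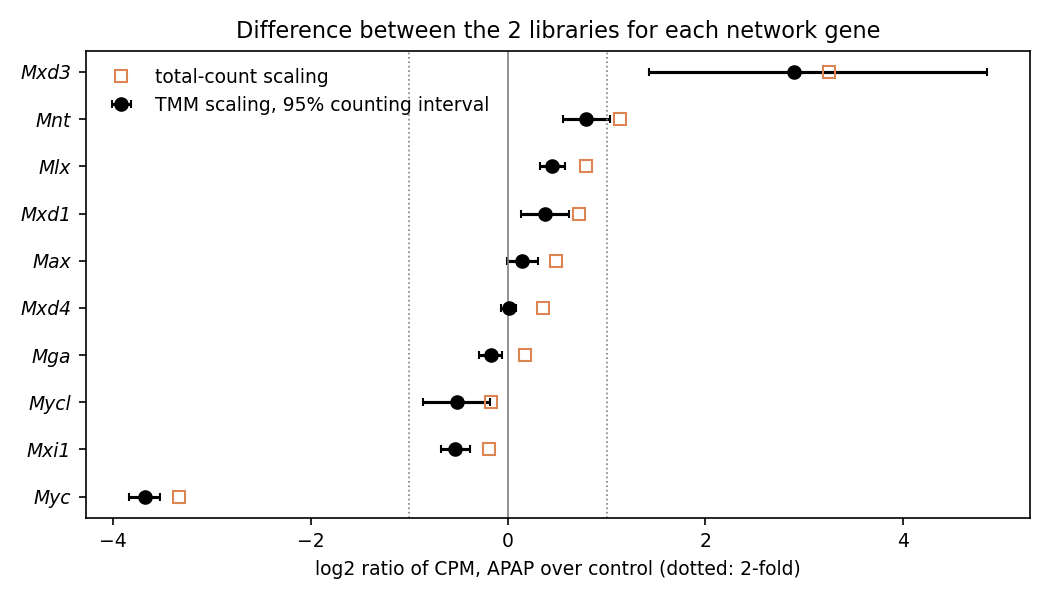
Ratio of CPM, APAP over control, on a log2 axis for each network gene. Black points and bars are TMM-scaled ratios with 95% counting intervals, open squares the same ratios with total-count scaling, and dotted lines mark 2-fold. Myc lies far to the left in both scalings (ratios 0.0779 and 0.0990), and Mxd3 has the widest interval.

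Of the 10 members, 1 was called lower (Myc) and 1 higher (Mxd3), and 8 met neither rule. Over the 14096 genes with at least 20 counts, 7.09% were called lower and 10.7% higher, so counts of 1 in 10 in each direction lie near the background. All 10 members passed the minimum of 20 counts, but Mxd3 did so only through the APAP library. The median log2 ratio of the members was 0.08, beside 0.02 over all genes. The members' intervals lay wholly above 1 for 4 genes (Mxd1, Mxd3, Mnt and Mlx), wholly below 1 for 4 (Myc, Mycl, Mxi1 and Mga), and included 1 for Max and Mxd4. Over the 14096 genes, 4811 intervals lay wholly above 1 and 4655 wholly below 1, so these counts also lie near the background.

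Myc (ENSMUSG00000022346), the founding activator of the network, had 3717 counts in control cells and 358 after acetaminophen. That is 79.9 CPM (77.4 to 82.5) against 6.23 CPM (5.60 to 6.91), 12.8-fold lower (11.5 to 14.3). Only 77 of the 14096 genes had a lower ratio. With total counts in place of TMM the ratio was 0.0990, in the same direction.

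Mycl (ENSMUSG00000028654), a paralog with the same partner, was far less counted, at 160 and 138 counts. Its levels were 3.44 CPM in control and 2.40 CPM in APAP, a ratio of 0.698 (0.552 to 0.882). With total counts the ratio was 0.886 and its interval, 0.701 to 1.12, included 1. Mycn, a further paralog outside the member list, was called higher, with 74 and 190 counts, 1.59 against 3.30 CPM and a ratio of 2.08 (1.58 to 2.76). The Myc family was thus not uniform, and the sum of Myc and Mycl was 83.4 CPM in control and 8.63 CPM in APAP.

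Max (ENSMUSG00000059436), the shared partner, had 574 and 785 counts, or 12.3 CPM (11.4 to 13.4) against 13.7 CPM (12.7 to 14.6). The ratio of 1.11 had an interval of 0.992 to 1.23, which includes equality in this scaling, and it was 1.41 (1.26 to 1.57) with total counts. Within a library, the quotient of 2 genes does not depend on the scaling of the library. Per kb of exon, with the exons of all annotated transcripts merged, there were 8.58 Myc for each Max in control and 0.604 in APAP. That quotient was 14.2-fold lower (12.2 to 16.5) in the APAP library, the interval being a normal approximation on the log of the 4 counts.

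Of the repressor genes, Mxd4 (ENSMUSG00000037235), the most counted MXD gene, had 2814 and 3493 counts. Its levels were 60.5 CPM (58.3 to 62.8) and 60.8 CPM (58.8 to 62.8), a ratio of 1.004 (0.955 to 1.06), or 1.28 with total counts. Mxi1 (ENSMUSG00000025025), also known as Mxd2, had 861 and 736 counts, 18.5 CPM against 12.8 CPM. Its ratio was 0.691 (0.626 to 0.764), and 0.878 (0.795 to 0.970) with total counts, lower in both scalings but by less than 2-fold.

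Mxd1 (ENSMUSG00000001156), a repressor linked to terminal differentiation, had 222 and 356 counts, 4.77 CPM against 6.19 CPM. The ratio was 1.30 (1.09 to 1.54). Mnt (ENSMUSG00000000282), a broadly expressed antagonist of MYC, had 220 and 471 counts, 4.73 CPM (4.13 to 5.40) against 8.19 CPM (7.47 to 8.97). Its ratio of 1.73 (1.47 to 2.04) missed the 2-fold rule, and with total counts it was 2.20 (1.87 to 2.59) and met it. Among these genes Mnt had the largest ratio of those with more than 100 counts in each library.

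Mxd3 (ENSMUSG00000021485), the MXD gene known in mouse embryos from cycling progenitors, had 4 counts in control and 37 in APAP. Its levels were 0.0860 CPM (0.0234 to 0.220) and 0.644 CPM (0.453 to 0.887), a ratio of 7.48 (2.69 to 28.9). In the GENCODE M21 annotation 105 of its 2369 exon bases overlap Prelid1 on the opposite strand. Prelid1 had 5300 and 7042 counts, and no source used here states the strand setting of the counting, so the part of such reads in the Mxd3 counts was not tested.

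The 5 repressor genes Mxd1, Mxd3, Mxd4, Mxi1 and Mnt together held 4121 and 5093 counts, 88.6 CPM in each library. The ratio of this sum was 0.9997 (0.959 to 1.04) with TMM, but 1.27 with total counts, so its direction rests on the scaling. Myc was 47.4% (46.3 to 48.5) of the counts of Myc and these 5 genes in control and 6.57% (5.92 to 7.26) in APAP. These shares, with exact Clopper-Pearson intervals, do not depend on scaling. Mxd4 was 68.3% and 68.6% of the repressor counts.

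Against Max in the same library, Mnt was higher in APAP, with a quotient change of 1.57 (1.29 to 1.90). Mxi1 was lower against Max, at 0.625 (0.540 to 0.723). For Mxd4 and Mxd1 the interval of this change included 1, at 0.908 (0.806 to 1.02) and 1.17 (0.961 to 1.43). Myc against Mnt was 22.2-fold lower (18.3 to 27.0) in the APAP library.

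**Figure D2:**
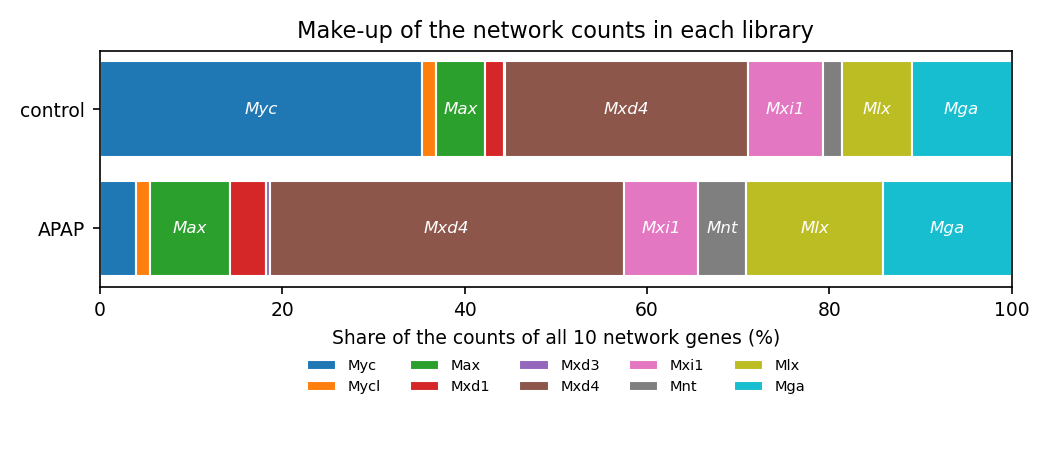
Each bar is 1 library and each block the share, in percent, of 1 gene in the counts of all 10 network genes. Myc takes 35.3% of the control bar and 3.98% of the APAP bar. The share of Mxi1 is 8.18% in both, since its TMM ratio and that of the sum of all 10 genes were each 0.691.

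Mlx (ENSMUSG00000017801), the parallel hub, had 803 and 1355 counts, 17.3 CPM (16.1 to 18.5) against 23.6 CPM (22.3 to 24.9). The ratio was 1.37 (1.25 to 1.49), and 1.73 with total counts. Of its exon bases, 385 of 1999 overlap Psmc3ip on the opposite strand, a gene with 4 and 20 counts. Of its activating partners, Mlxipl was lower by its interval and Mlxip had an interval that included 1. Mlxipl, which encodes ChREBP, had 10243 and 7715 counts, 220 against 134 CPM and a ratio of 0.609 (0.591 to 0.628). Mlxip, which encodes MondoA, had a ratio of 1.14 (0.921 to 1.41).

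Mga (ENSMUSG00000033943), a large protein that joins a T-box to the MAX-binding domain and recruits a Polycomb complex, had 1157 and 1269 counts. Its levels were 24.9 CPM (23.5 to 26.4) and 22.1 CPM (20.9 to 23.3). The ratio was 0.887 (0.819 to 0.962) with TMM and 1.13 (1.04 to 1.22) with total counts, so the direction turned with the scaling.

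**Figure D3:**
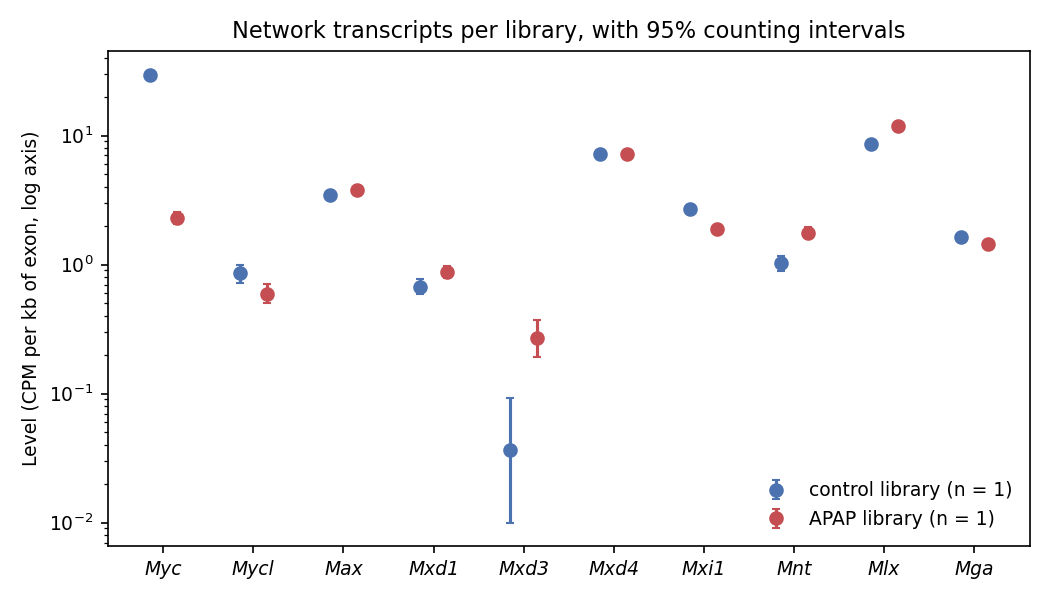
Level of each network gene in CPM per kb of exon, on a log axis, with 95% counting intervals, for the control library (blue) and the APAP library (red). Myc is the highest gene in control at 29.4 and number 4 in APAP at 2.29, whereas Mxd4 sits at 7.13 and 7.16.

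Levels were compared between genes only per kb of exon, with lengths from GENCODE M21. Each length merges the exons of all annotated transcripts of a gene. The transcripts present in these cells can be shorter, so the order of the genes depends on this choice of length. In the control library the order was Myc at 29.4 CPM per kb, Mlx at 8.64, Mxd4 at 7.13, Max at 3.43, Mxi1 at 2.71, Mga at 1.62, Mnt at 1.02, Mycl at 0.852, Mxd1 at 0.675 and Mxd3 at 0.0363. The intervals of Mnt and Mycl overlapped there, as did those of Mycl and Mxd1. In the APAP library the order was Mlx at 11.8, Mxd4 at 7.16, Max at 3.79, Myc at 2.29, Mxi1 at 1.88, Mnt at 1.77, Mga at 1.44, Mxd1 at 0.876, Mycl at 0.594 and Mxd3 at 0.272. Only the neighbours Mxi1 and Mnt had overlapping intervals in that library. Myc thus went from place 1 to place 4, and Mnt from below Mga to above it.

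**Figure D4:**
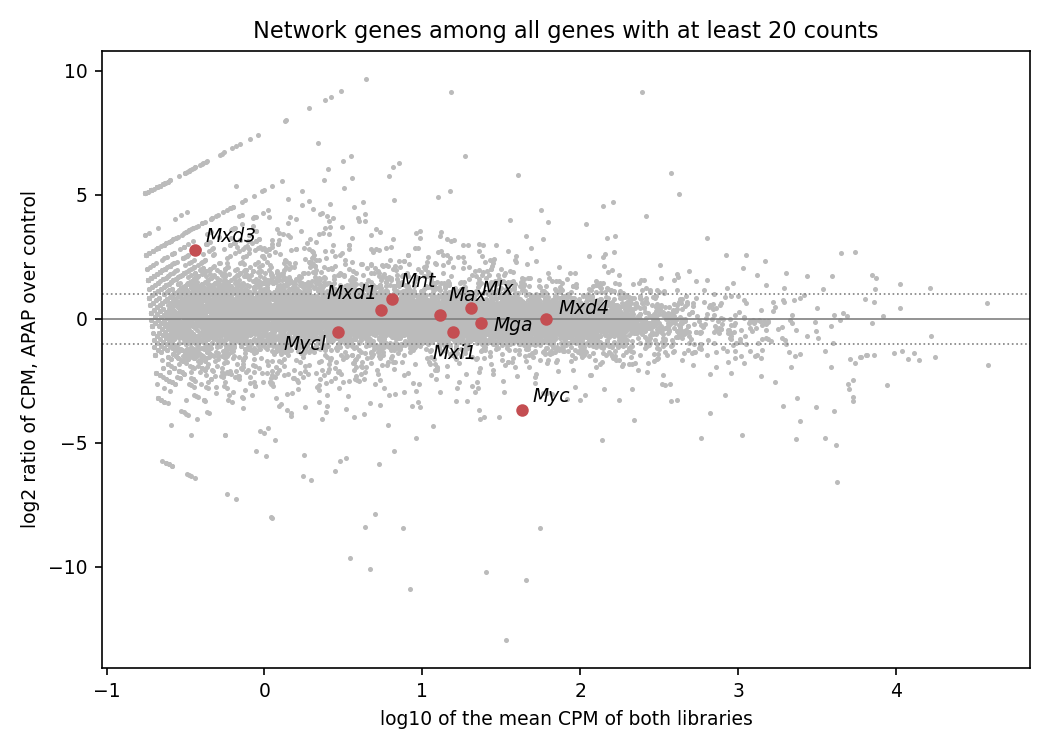
The log2 ratio (with 0.5 counts added) of every gene with at least 20 counts, in grey, against the log10 of its mean CPM, with the 10 network genes in red and dotted lines at 2-fold. The slanted grey lines at the left are genes with 0 or few counts in a library. Myc lies well below the lower dotted line, Mxd3 stands at the low-count end, and the other 8 genes lie between the dotted lines.

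The genes with values most like those of Myc were sought among 3254 genes with a mean CPM within 2-fold of its own, by the nearest log2 ratio over the 2 libraries. They were Ppp1r3g, which targets a phosphatase to glycogen, at 12.9-fold lower, and Mme, which encodes the peptidase neprilysin, at 15.4-fold lower. Next came the circadian transcription factor gene Dbp at 15.5-fold lower, AC127342.1 at 16.5-fold lower, and Serpina6, which encodes the corticosteroid carrier of plasma, at 9.27-fold lower. In this range 108 genes were called lower, and 8 had a lower ratio than Myc.

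The direct neighbourhood of Myc was examined next. Pvt1, a long noncoding RNA gene beside Myc, had 69 and 14 counts, 6.09-fold lower (3.40 to 11.7), at 1.48 against 0.244 CPM. Of 22 measured regulators of Myc transcription or mRNA, WNT pathway genes included, 3 were called lower and 3 higher. Over all genes 7.09% were called lower and 10.7% higher. The median log2 ratio of the list was -0.13 beside 0.02 over all genes. The 3 lower ones were targets and feedback genes of WNT signalling, a pathway known to activate Myc in gut epithelium. Lgr5 was 41.1-fold lower (25.8 to 69.8), Rnf43 3.19-fold lower (2.95 to 3.45) and Axin2 2.82-fold lower (2.31 to 3.45). Other WNT genes of the list met neither rule, namely Ctnnb1, Tcf7l2, Tcf7 and Znrf3, at ratios of 0.977, 0.590, 0.662 and 0.527. Tcf7l1 was called higher. The part of WNT signalling in the Myc values was not tested.

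The higher regulators were Tcf7l1, a TCF factor that often represses, Foxm1 and Stat3. Tcf7l1 had 57 and 343 counts and a ratio of 4.87 (3.67 to 6.56). Foxm1, a mitotic transcription factor gene, had 6 and 67 counts and a ratio of 9.03 (3.94 to 25.5). Stat3, the effector of interleukin-6, went from 92.5 to 196 CPM, a ratio of 2.12 (2.04 to 2.19). Zfp36 and Ybx1, RNA-binding protein genes and the most abundant of the list, had ratios of 1.31 and 0.977.

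Corepressors and cofactors of the network met neither rule with TMM, and with total counts 1 coactivator gene was called higher. That held for 13 of 13 SIN3 and NCOR corepressor genes (median log2 ratio -0.16) and 11 of 11 partners of MGA (-0.13). It also held for 18 of 18 coactivators and partners of MYC (-0.06). Over all genes, 11584 of 14096 met neither rule with TMM, so most genes of any list would do so. The corepressor gene Ncor1 had a ratio of 0.718 (0.692 to 0.744). Of 22 genes that set the turnover of MYC protein, 3 were called higher and 0 lower, beside 10.7% and 7.09% over all genes. The median log2 ratio of these 22 was -0.11. With total counts 5 were called higher, beside 2435 of the 14096 genes. The 3 called higher with TMM were the mitotic kinase genes Plk1 and Aurka, which the mitotic list also holds, and the phosphatase inhibitor gene Cip2a. Cip2a had a ratio of 2.10 (1.41 to 3.20). Plk1 had 0 counts in control and 157 in APAP, so it passed the minimum only through the APAP library. Huwe1, a ubiquitin ligase gene, had a ratio of 0.758 (0.738 to 0.779).

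Genes known as MYC targets were described by list, to be read beside the 10.7% called higher and 7.09% lower over all genes. Of 36 genes of ribosome biogenesis, 0 were called higher and 0 lower, with a median log2 ratio of -0.01 beside 0.02 over all genes, and all 36 met neither rule also with total counts. Ncl, which encodes nucleolin, stood at 139 and 125 CPM, a ratio of 0.901 (0.871 to 0.932). Rcl1 had a ratio of 0.666 (0.639 to 0.695). These are values of 2 libraries and do not show that the genes were the same in both conditions.

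Of 33 measured other genes known to be activated by MYC, 4 were called higher and 0 lower, with a median log2 ratio of 0.22. Over all genes 10.7% were called higher and 7.09% lower, so the higher count lies near the background. With total counts 8 were called higher, beside 2435 of the 14096 genes. Cad, the first enzyme of pyrimidine synthesis, had 671 and 3012 counts, 14.4 against 52.4 CPM and a ratio of 3.63 (3.34 to 3.95). Srm, which encodes spermidine synthase, had a ratio of 2.68 (2.46 to 2.92). The transferrin receptor gene Tfrc had a ratio of 2.26 (2.04 to 2.50) and the cell cycle phosphatase gene Cdc25a of 2.15 (1.73 to 2.70). Ldha, the lactate dehydrogenase gene, lay just under 2-fold at 1.99 (1.95 to 2.02), from 471 to 934 CPM. The mitochondrial chaperone gene Hspd1 had a ratio of 0.888.

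Of 10 measured genes that MYC represses through Miz1 or is reported to repress, 1 was called higher and 2 lower. Over all genes the shares were 10.7% higher and 7.09% lower. The median log2 ratio of the list was -0.55. Cdkn1a, which encodes p21, was the higher one, with 66 and 4549 counts and a ratio of 55.8 (43.7 to 72.2). It is also a textbook target of p53. Gas1 was 2.72-fold lower (2.33 to 3.19) and Gadd45g 2.18-fold lower (2.11 to 2.26). With total counts 1 was called lower, Gas1, beside 626 of the 14096 genes. Ndrg2, an abundant member of the list, had a ratio of 0.621.

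Genes known as targets of MLX with its Mondo partners were lower in part. Of 20 measured, 8 were called lower and 0 higher, beside 7.09% and 10.7% over all genes. The median log2 ratio was -0.64. With total counts 3 were called lower and 2 higher, beside 626 and 2435 of the 14096 genes. Scd1, the desaturase of lipogenesis, went from 8879 to 1247 CPM, 7.12-fold lower (7.06 to 7.18). Me1 was 3.69-fold lower (3.57 to 3.82), and Thrsp, a lipogenic spot protein gene, 3.15-fold lower (3.04 to 3.25). The glucose transporter gene Slc2a2 was 2.48-fold lower (2.41 to 2.55).

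**Figure D5:**
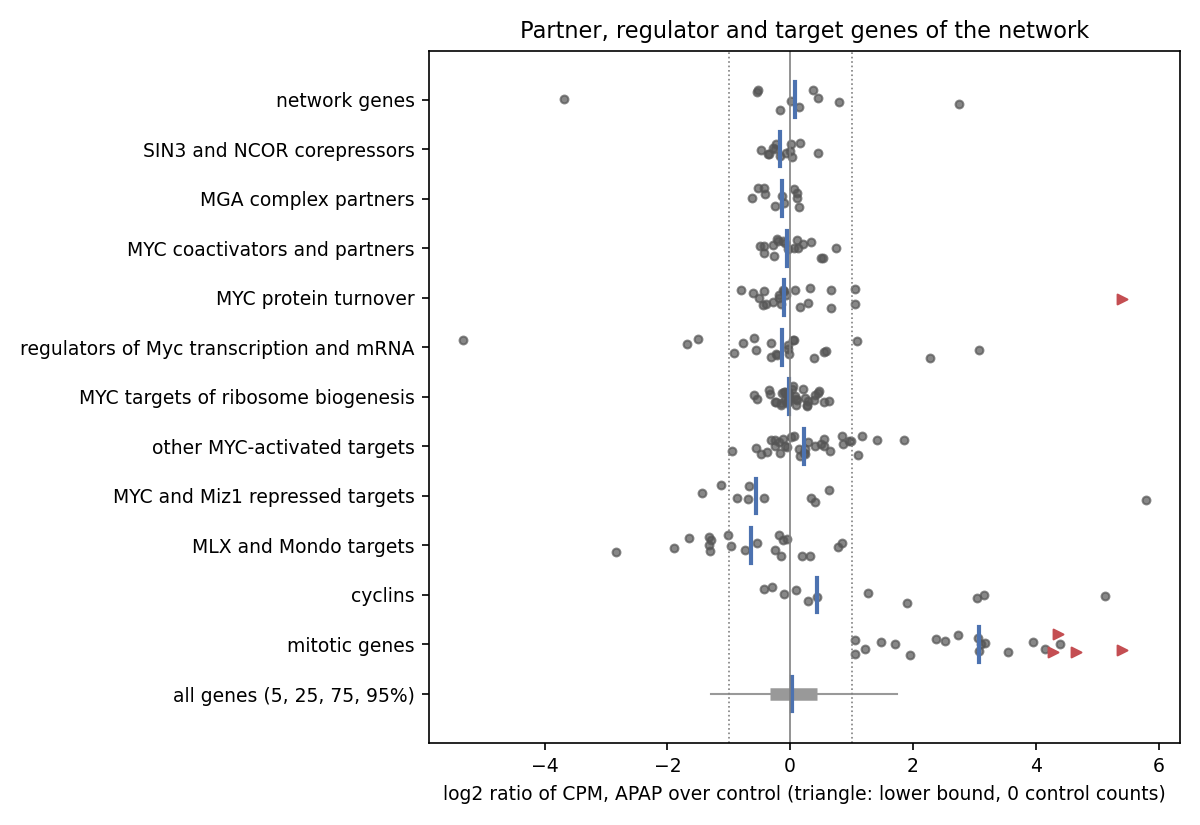
Log2 ratios (with 0.5 counts added) of the measured genes of each list, 1 point per gene, with the median as a blue bar. Red triangles are lower bounds for genes with 0 control counts, dotted lines mark 2-fold, and the bottom row gives the middle 50% and 90% of all genes. Ribosome biogenesis genes lie within 2-fold, whereas all measured mitotic genes lie to the right of it.

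Cyclin and mitotic genes were named in the choice of the members, so their counts are a description. Of 11 measured cyclin genes, 5 were called higher and 0 lower, beside 10.7% and 7.09% over all genes. Of the 11, 4 held fewer than 20 counts in control and passed the minimum through the APAP library, among them Ccna2, Ccnb1 and Ccnb2. Ccna2, the cyclin of S and G2 phases, had 2 and 108 counts, a ratio of 43.7 (11.8 to 365). Ccnb1 and Ccnb2, the mitotic cyclins, had ratios of 8.70 (4.22 to 20.8) and 9.48 (4.40 to 24.3). Ccnd1, the cyclin of G1 entry, had a ratio of 3.73 (3.21 to 4.35), whereas Ccnd3 had 0.932 and Ccng1 0.814 (0.758 to 0.873). All 21 mitotic genes with at least 20 counts were called higher, with a median log2 ratio of 3.07, or 3.14 with genes at 0 counts at their bound. Of these, 13 held fewer than 20 counts in control and passed that minimum through the APAP library. The whole list of 25 summed to 9.16 CPM in control and 55.8 CPM in APAP.

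Transcripts that mark other cell types also differed between the libraries. Hepatocyte transcripts led both, with Alb at 29194 and 45856 CPM. Alb does not stand for the whole list. Of 12 measured hepatocyte markers, 3 had intervals wholly above 1 and 9 wholly below 1, and 1 was called higher and 2 lower. Their median log2 ratio was -0.23, or 0.12 with total counts. Of 14 macrophage and neutrophil markers, 6 had a row, summing to 0.151 CPM in control and 7.04 CPM in APAP. Csf1r, Lyz2, Marco and Ly6g were at 0 in control. The other 8, Ptprc, Adgre1, Clec4f, Itgam, S100a8, S100a9, Timd4 and Vsig4, had no row. Only 3 of the 6 held at least 20 counts, and all 3 were called higher. Each of these 3 held fewer than 20 counts in control. The 12 endothelial markers with a row summed to 23.7 and 30.2 CPM, but they differed in both directions. Of these, 6 were called higher, 2 lower and 4 met neither rule, and 2 held fewer than 20 counts in control. The 12 markers of stellate cells and fibroblasts with a row summed to 1.55 and 11.3 CPM. Of the stellate cell and fibroblast markers, Col1a1, Col1a2, Col3a1, Pdgfrb and Hand2 were at 0 in control, and Pdgfra was at 0 in APAP. Only 4 of these 12 held at least 20 counts, of which 2 were called higher and 2 met neither rule. The 6 cholangiocyte markers with a row summed to 24.3 and 59.0 CPM, with Sox9 at 2.13 and 24.3 CPM and Spp1 at 0.882 and 9.97 CPM. Only 4 of these 6 held at least 20 counts, of which 2 were called higher and 2 met neither rule. The other cholangiocyte markers sought, Krt7, Krt19, Epcam and Cftr, had no row. The 4 lymphocyte markers with a row summed to 7.93 and 0.174 CPM, chiefly Ighm, and 7 others sought had no row. Only 2 of the 4 held at least 20 counts, and these 2 were called lower. The part of such cells in the values of the network genes was not tested.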

How the data were processed

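The members and lists were chosen with earlier results of these data known. HISAT2, Subread and mouse build mm39 are named per the submitters' processing notes. The annotation is not given in the sources used here, nor are strand setting and handling of read pairs. The deposited raw counts per Ensembl gene were not normalized by the authors. The deposited normalized signal is each count divided by 1 size factor per library (control 0.894, APAP 1.12), which match factors computed here with DESeq2 1.42.0.

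Symbols matched 20679 of 20823 identifiers. Totals were scaled with TMM in edgeR 4.0.16 (R 4.3.3), to effective totals of 46508421 and 57493500. Ratios carry exact conditional Poisson intervals and levels exact Poisson intervals, at 95%. They cover counting error only, since each group held 1 library. Reads also carried no molecular identifiers. Of counts from 1 to 20, 68.3% in control and 70.6% in APAP were even, so intervals are too narrow if mates were counted separately. A gene with 0 control counts was set against a floor of 3 counts. List medians add 0.5 counts and use genes with at least 20. Exon lengths and overlaps come from GENCODE M21 (GRCm38), an annotation of another build than mm39. The only coordinates given are those of the promoter stretches, on GRCm38.p6, which is also another build than mm39. Promoter windows were matched by symbol to RefSeq (GRCm38.p6), which held 9 of 10 members; Myc had no entry. Steps were tested on simulated counts. Python 3.11.15, numpy 2.4.6, scipy 1.17.1 and pandas 2.3.3 were used.

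Named genes were all members and network genes and, per list, up to 4 genes farthest in each direction under the rule and the 2 most abundant, of which some are given. Alternatives were 4 other scalings, halved counts, other count minimums, a 1.5-fold threshold and a prior of 5. Some genes the rule names are not reported here.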

Additional observations from a re-analysis of the deposited data

How the results depend on the processing

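No paired analysis was possible because each group held 1 library, and no library could be left out. Total counts moved every log2 ratio by 0.35 and totals without genes above 1% of a library by 0.34; DESeq2 factors and upper quartile factors moved them by -0.02 and -0.01. With total counts and without genes above 1%, the Myc ratio was 0.0990 and 0.0987, and the ratio of the summed Mxd1, Mxd3, Mxd4, Mxi1 and Mnt was 1.27 in each. Those scalings gave 2435 and 2423 higher and 626 and 629 lower genes, and the higher share of called genes went from 60.2% to 79.5% and 79.4%. Under each of them 2 members were called higher, Mxd3 and Mnt. Each also gave 8 other MYC-activated targets higher, 1 MYC and Miz1 repressed target lower, and 2 MLX and Mondo targets higher and 3 lower. A minimum of 50 counts left 0 members higher, since Mxd3 held 41. A 1.5-fold threshold gave 2485 higher and 1843 lower genes and 2 members higher. Halving the counts widened the Mxd3 interval to 1.80 to 66.4 and that of Myc to 0.0665 to 0.0909. Of 494 values under alternatives, 393 stayed within the set margin and 101 moved. A reversal could be recorded only for the ratios of Myc and Mxd3, the members called in the main setting, and neither reversed. List medians had no such label. That of the SIN3 and NCOR corepressors, for example, changed sign from -0.16 to 0.19 with total counts. Depth limits Mxd3, with 4 counts in control, and the mitotic genes with 0 counts there.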

Other observations

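Early response genes, a class that Myc belongs to, differed in both directions. Of 23 measured, 5 were called higher and 4 lower, beside 10.7% and 7.09% over all genes, with a median log2 ratio of 0.26. With total counts 8 were called higher and 3 lower, without Egr2, beside 2435 and 626 of the 14096 genes. Halved counts or a minimum of 50 counts also gave 3 lower, without Egr2. Klf6, Ier5, Ier3 and Btg1 had ratios of 5.93 (4.85 to 7.31), 5.25 (3.62 to 7.82), 3.20 (1.99 to 5.37) and 2.15 (2.04 to 2.28). Nr4a2, with 94 and 5 counts, was 23.2-fold lower (9.61 to 73.2), Maff 2.96-fold lower (2.45 to 3.60), Nr4a1 2.92-fold lower (2.62 to 3.26) and Egr2 2.01-fold lower (1.04 to 4.01). Jun, the most abundant with Zfp36, had a ratio of 1.59 (1.55 to 1.63).

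Other helix-loop-helix genes whose products read E-boxes without MAX were measured too. Bhlhe41, a repressor of the circadian clock, was 5.47-fold lower (3.86 to 7.92), while its paralog Bhlhe40 had a ratio of 1.17 (1.13 to 1.22). Mitf had a ratio of 2.12 (1.69 to 2.67), beside 0.879 for Tfe3 and 1.05 for Tfeb. Usf1 and Usf2 had ratios of 1.08 and 0.759, and Tfap4 of 0.879.

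Across all measured genes with a RefSeq promoter window, 1134 held CACGTG and 8518 did not. The median log2 ratio was -0.03 with the element and 0.01 without it. Of genes with it, 7.14% were called higher and 6.08% lower, against 10.3% and 6.43% without it. These are descriptions of 2 libraries, with no test.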
